A study of Homo sapiens with 2 samples.

Results

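The nuclear receptors that sense bile acids, foreign compounds and oxysterols were examined in Huh7 cells, together with their common partner and the aryl hydrocarbon receptor pair. Huh7 cells come from a human liver carcinoma and keep many features of hepatocytes. The members were the 10 genes NR1H4, NR0B2, NR1I2, NR1I3, NR1H2, NR1H3, RXRA, RXRB, AHR and ARNT, taken by gene name from the 61541 genes of the deposited table, where each had 1 row. In the study, a control siRNA was transfected into one culture of these cells (Huh7-NC) and an siRNA that targets BRF2 into the other (Huh7-si). BRF2 is a subunit of an initiation factor of RNA polymerase III. RNA-seq was made from 1 library of each, so no difference below has a replicate check. All cells were of the same tumor line, and no time point is given in the sources used here. The study lists more than 1 siRNA against BRF2, and which of them was sequenced is not given in the sources used here.

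These receptors are transcription factors that small molecules switch on. NR1H4 (FXR) binds bile acids, NR1I2 (PXR) and NR1I3 (CAR) respond to drugs and other foreign compounds, and NR1H2 and NR1H3 (LXRβ and LXRα) bind oxysterols, the oxidized forms of cholesterol. Each of them pairs with a retinoid X receptor, such as RXRA or RXRB, to bind DNA. NR0B2 (SHP) has no DNA-binding domain and represses other receptors, and in liver it is induced by FXR and lowers bile acid synthesis. AHR is not a nuclear receptor but a ligand-activated factor of another family, which pairs with ARNT.

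The 2 libraries were of similar depth, 22852648 reads for Huh7-NC and 22089016 for Huh7-si. BRF2, the target of the siRNA, went from 30.8 to 10.2 TPM, and its log2 fold change was -1.77. The hepatocyte genes ALB and AFP were high in both libraries, at 3957 and 3391 TPM in Huh7-NC and at 4077 and 4014 TPM in Huh7-si. All 8 hepatocyte markers passed the filter and summed to 15087 and 16310 TPM, but they did not go one way. APOB was called higher (76.6 and 179 TPM, log2 fold change 1.04, and 0.81 and not called with TMM scaling), and APOA1 was lower (1195 and 755 TPM, -0.83, and -1.05 and called lower with TMM scaling). Of the leukocyte markers, CD3E had no reads in either library and PTPRC had 5 and 1 reads, while CD68 had 235 and 244. CD68 shares 81.7% of its exon bases with AC016876.2 on the same strand (209 and 460 reads), so the division of their reads is uncertain. The 4 endothelial and fibroblast markers summed to 2.22 TPM in Huh7-NC and 5.91 TPM in Huh7-si, and COL1A1 (76 to 229 reads) and COL3A1 (19 to 44 reads) were among the genes called higher. Of the bile duct markers, KRT19 (178 and 176 TPM) and SOX9 (49.9 and 69.5 TPM) had log2 fold changes of -0.20 and 0.30, and KRT7 had 0 and 3 reads. In whole cultures, fewer cells of a type and less RNA per cell cannot be told apart.

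Levels are given in TPM, which is scaled for transcript length and library size and so allows genes to be set beside each other. Differences are given as log2 fold changes of CPM, the reads of a gene scaled to the total reads on genes, in Huh7-si over Huh7-NC. A gene was called higher or lower when its fold was at least 2 and its reads gave an unadjusted p under 0.05 in the two-sided exact binomial test. Such a test speaks of the 2 libraries, not of the conditions. The intervals given are 95% exact intervals (Clopper-Pearson for fold changes, Poisson for levels) and, like the 3 reads that a count of 0 allows, cover counting error only.

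All 10 receptor genes had reads in both libraries and passed the filter of 10 reads. Together they amounted to 250.9 TPM in Huh7-NC and 250.8 TPM in Huh7-si, but their order was not the same. AHR alone was called higher, 1 of 10 genes, where 13.0% of the 17955 genes tested were called higher. No member was called lower, where 1.19% of all genes tested were. At a fold of 1.5, 1 member (AHR) was higher, against 23.6% of genes, and 1 member (NR0B2) was lower, against 3.90% of genes. Of the members, 7 had a log2 fold change below 0, and the median of the 10 was -0.08, where the median of all genes tested was 0.21. The scaling moved both medians: with edgeR's TMM scaling they were -0.31 and -0.01, and on the TPM scale 0.23 and 0.39.

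In Huh7-NC, NR1H4 had the highest level of the 10, at 66.0 TPM (95% Poisson interval 63.3 to 68.7). NR1H2 and NR1H3 followed at the same level, 42.7 TPM each. RXRA was at 28.4 TPM and NR0B2 at 28.2 TPM, and these neighbours did not differ beyond counting error. RXRB (17.7 TPM), ARNT (12.9 TPM) and AHR (7.55 TPM) came next, each below the interval of the one before. NR1I3 and NR1I2 were lowest, at 2.70 TPM (1.87 to 3.78) and 2.13 TPM (1.75 to 2.57), with overlapping intervals.

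In Huh7-si, NR1H4 was still highest, at 48.6 TPM (46.1 to 51.1), and NR1H2 and NR1H3 followed at 41.0 and 40.6 TPM with overlapping intervals. RXRA was at 30.1 TPM and RXRB at 24.9 TPM. NR0B2, AHR and ARNT now lay together, at 19.6, 19.1 and 19.0 TPM, with intervals that overlapped. NR1I2 and NR1I3 remained lowest, at 4.40 TPM (3.68 to 5.21) and 3.49 TPM (2.42 to 5.0). The ratio of NR1H4 to NR1I2 in TPM was 31.0 in Huh7-NC and 11.0 in Huh7-si, on a scale where NR1I2 differed more between the libraries than it did in reads.

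**Figure D1:**
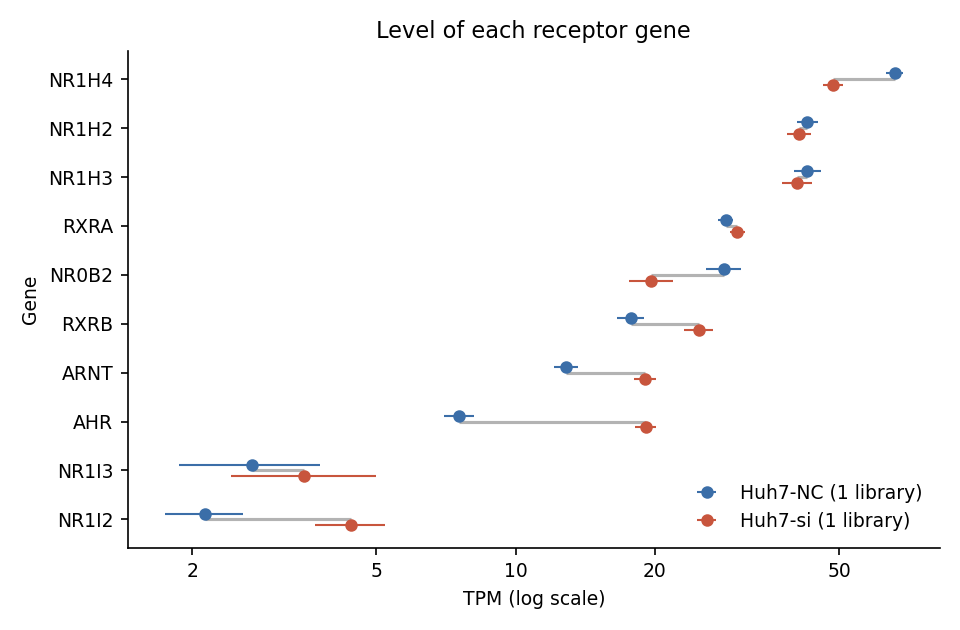
Level of each receptor gene in TPM (log axis) in the single Huh7-NC and the single Huh7-si library, with bars for the 95% Poisson interval of the reads and a grey line joining the libraries. AHR goes from 7.55 to 19.1 TPM and meets ARNT and NR0B2 near 19 TPM in Huh7-si, while NR1H4 stays highest in both libraries.

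NR1H4 encodes FXR, the main bile acid receptor of liver and intestine. The gene (ENSG00000012504) lies on chromosome 12 from 100473708 to 100564413 on the plus strand (GENCODE release 29, GRCh38). Its reads numbered 2319 in the control and 1515 in the Huh7-si library. The latter was lower, with a log2 fold change of -0.57 (95% interval -0.66 to -0.47), which did not reach a fold of 2. On the TPM scale the log2 fold change was -0.44, with TMM scaling -0.79, and relative to the median of genes of like length -0.52, so that the direction was the same on all 4 scales. Of all genes tested, 6.46% had a lower log2 fold change.

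NR0B2 encodes SHP, which FXR induces and which in turn represses CYP7A1. The gene (ENSG00000131910) lies on chromosome 1 from 26911489 to 26913966 on the minus strand. Its 534 control reads stood against 335 in Huh7-si, or 28.2 against 19.6 TPM. Its log2 fold change of -0.62 (-0.83 to -0.42) was the lowest of the 10 members and exceeded a fold of 1.5 but not of 2. The ratio of NR1H4 to NR0B2 in TPM was 2.34 in Huh7-NC and 2.48 in Huh7-si. NR0B2 lies wholly within NUDC, a gene on the other strand with 7702 and 5647 reads (log2 fold change -0.40). Its exons share 0 bases with those of NUDC in the annotation.

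Apart from NR0B2, 7 genes that FXR is known to induce were counted, and all of them passed the filter. Of these, 1 was called lower and 0 were called higher, where 1.19% and 13.0% of all genes tested were. SLC51B, the β subunit of the organic solute transporter that exports bile acids from cells, fell from 762 to 249 reads, or from 54.0 to 20.4 TPM. Its log2 fold change was -1.56 (-1.78 to -1.36, p = 2.0e-57 from the exact binomial test), and it was called lower with TMM scaling (-1.79) and also against genes of like length (-1.38). SLC51A, the α subunit of the same transporter, had 228 and 237 reads (log2 fold change 0.10, -0.16 to 0.37), which did not differ beyond counting error. FGF19, a hormone that represses bile acid synthesis, had 56.8 and 79.5 TPM and a log2 fold change of 0.31 (0.22 to 0.40). The median of the list was 0.33, where that of all genes tested was 0.21. The members of this list thus did not go one way: SLC51B was lower and the other 6 had values above 0, from 0.10 for SLC51A to 0.76 for BAAT (22 to 36 reads). The intervals of ABCB11 (18.1 and 22 reads), SLC51A, BAAT and SLC27A5 included 0, and those of ABCB4 and FGF19 did not. SLC51A was below 0 with TMM scaling (-0.12) and by TPM (-0.05).

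The stretch of 250 bases before a RefSeq start of NR1H4 and of SLC51B is shown because both had fewer reads in Huh7-si and because each holds the letters AGGTCA, the basic binding motif of many nuclear receptors. CYP1A1 is shown as the best known target of AHR, with the core letters GCGTG of the AHR and ARNT binding motif. The sequences are from RefSeq (GRCh38.p14), 5′ to 3′ on the strand of the gene, and capitals mark AGGTCA or its reverse complement in NR1H4 and SLC51B and GCGTG in CYP1A1. NR1H4 is at chr12:100503110-100503359 on the plus strand, SLC51B at chr15:65045137-65045386 on the plus strand and CYP1A1 at chr15:74725529-74725778 on the minus strand.
NR1H4: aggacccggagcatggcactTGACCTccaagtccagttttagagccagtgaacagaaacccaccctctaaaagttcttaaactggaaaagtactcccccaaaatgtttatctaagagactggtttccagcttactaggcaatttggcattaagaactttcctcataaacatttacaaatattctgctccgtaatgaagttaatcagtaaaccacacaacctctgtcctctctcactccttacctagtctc
SLC51B: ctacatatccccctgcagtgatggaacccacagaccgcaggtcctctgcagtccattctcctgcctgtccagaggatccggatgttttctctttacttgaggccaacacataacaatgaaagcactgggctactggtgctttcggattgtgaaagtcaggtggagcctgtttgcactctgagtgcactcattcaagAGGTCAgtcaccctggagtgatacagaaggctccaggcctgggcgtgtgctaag
CYP1A1: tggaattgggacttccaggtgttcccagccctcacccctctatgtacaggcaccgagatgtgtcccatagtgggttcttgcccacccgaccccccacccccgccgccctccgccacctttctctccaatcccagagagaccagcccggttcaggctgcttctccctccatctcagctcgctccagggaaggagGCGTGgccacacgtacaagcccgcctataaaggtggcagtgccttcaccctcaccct

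In NR1H4 the motif lies on the other strand, from base 230 to base 225 before the start, and in SLC51B it lies on the strand of the gene from base 54 to base 49 before it. In CYP1A1 the letters GCGTG lie from base 57 to base 53 before the start, on the strand of the gene. The SLC51B stretch also holds GCGTG, shown in lower case near its end. Such short motifs are common. Of 35116 promoters of this length, 12.1% held AGGTCA and 32.2% held GCGTG on either strand. By symbol, 9 of the 10 members matched the table, and of these NR1H3 and NR1H4 held AGGTCA while NR1H2, NR1H3 and RXRB held GCGTG. Of the 5 FXR targets with a match, BAAT and SLC51B held AGGTCA, and BAAT had a log2 fold change of 0.76. Of the 6 AHR targets with a match, 4 (AHRR, CYP1A1, TIPARP and UGT1A6) held GCGTG. The longer form TNGCGTG, which contains GCGTG, was held by 4.52% of promoters, by none of the 9 members and by AHRR and UGT1A6. A gene was counted as holding a motif if any of its promoters did. The 9 members had 15 promoters, the 6 AHR targets 10 and the 5 FXR targets 6. These counts per gene therefore cannot be set against the shares per promoter. A match to these letters is a description of the sequence and not evidence of binding.

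The enzymes and the carrier of bile acid synthesis and uptake were counted as a second group. Of its 11 genes, 8 passed the filter, 1 was called higher and 0 were called lower, where 13.0% and 1.19% of all genes tested were. CYP7A1, the rate-limiting enzyme of the classic pathway and the main gene that SHP represses, had 0 reads in both libraries, which allows up to 3 reads in each. CYP8B1 (1 and 2 reads) and SLC10A1, the bile acid uptake carrier (1 and 1 reads), were at or below that limit. CYP27A1, which starts the alternative pathway and also makes an oxysterol, had 839 and 531 reads (log2 fold change -0.61, -0.77 to -0.45). AKR1D1, a reductase that saturates the sterol ring, rose from 295 to 584 reads with a log2 fold change of 1.03 (0.83 to 1.24), and with TMM scaling it had 0.81 and was not called. The genes with the highest levels in the group were HSD17B4 (116 and 119 TPM) and SCP2 (113 and 97.1 TPM), peroxisomal proteins that also serve the breakdown of fatty acids, with log2 fold changes of -0.17 and -0.34. The median of the 8 genes was -0.26, below the 0.21 of all genes tested.

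NR1I2 encodes PXR and lies on chromosome 3 from 119780484 to 119818485 on the plus strand (ENSG00000144852). The libraries held 107 and 133 of its reads, which gave a log2 fold change of 0.36 whose interval (-0.02 to 0.74) included 0. On the TPM scale the same gene went from 2.13 to 4.40, a log2 fold change of 1.05. The number of reads behind 1 TPM of NR1I2 went from 50.2 to 30.2. Its log2 ratio lay -0.50 from the median of 13396 genes, which was itself -0.23. Within a library, the number of reads behind 1 TPM rises and falls with the length that the authors' estimate gives to the transcripts of a gene.

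NR1I3 encodes CAR and lies on chromosome 1 from 161229666 to 161238302 on the minus strand (ENSG00000143257). It had 33.9 and 31.5 estimated reads, or 2.70 and 3.49 TPM. Its log2 fold change was -0.06 (-0.78 to 0.70), a difference that was not detectable at this depth, and by TPM it was 0.37. The gene shares 20% of its exon bases with TOMM40L on the other strand, which had 947 and 759 reads, and without the strand of the reads the reads of the 2 genes cannot be told apart there.

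PXR and CAR share many target genes, and 14 of them were counted, of which 13 passed the filter. Of these, 6 were called higher, among them CYP3A5, CYP3A7, CYP2C19, ABCC2 and ABCC3, and 0 were called lower. Over all genes tested, 13.0% were called higher and 1.19% lower. CYP3A5, a drug-oxidizing cytochrome P450, rose from 248 to 562 reads, with a log2 fold change of 1.23 (1.01 to 1.45). ABCC2 and ABCC3, which pump conjugated compounds out of hepatocytes, rose from 1549 to 3427 reads (1.19, 1.11 to 1.28) and from 358 to 923 reads (1.42, 1.24 to 1.60). CYP3A7 rose from 5.77 to 16 reads (1.52, 0.04 to 3.11), a low count with a wide interval. The read-through gene CYP3A7-CYP3A51P, which shares 39.6% of the exon bases of CYP3A7 on the same strand, was listed with 14.2 reads in the control and 0 after the siRNA. A rise of CYP3A7 therefore cannot be told apart from a different division of reads between it and the read-through gene. CYP2C19 had 1.66 and 18.0 reads, a ratio of CPM on the log2 scale of 3.49 with a counting interval from 1.16 to 6.37.

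CYP3A4, the cytochrome most used to report PXR activity in hepatocytes, had 3 and 1 reads and was not tested, and CYP2B6, the usual reporter of CAR, had 17 and 20 reads (log2 fold change 0.28, -0.72 to 1.31). ABCB1, a drug efflux pump, had 634 and 1139 reads (log2 fold change 0.89, 0.75 to 1.04), under the threshold. SULT2A1, a sulfotransferase for steroids and bile acids, had 451 and 251 reads and -0.80 (-1.02 to -0.57). The genes of the group with the highest levels were POR (128 and 124 TPM), the electron donor of the cytochromes, and ALAS1 (85.3 and 76.7 TPM), the first enzyme of heme synthesis, with log2 fold changes of -0.08 and -0.19. The median of the 13 genes was 0.89. With TMM scaling 4 genes of the list were called higher and SULT2A1 lower, where 1601 and 406 of all 17955 genes tested were. Relative to genes of like length 4 were called higher and 0 lower, where 1669 and 282 of all genes tested were. The CYP3A and CYP2C genes have close paralogs, and the division of their reads is uncertain.

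NR1H2 and NR1H3 encode the oxysterol receptors LXRβ and LXRα. NR1H2 (ENSG00000131408, chromosome 19 from 50329653 to 50382982, plus strand) was read 1440 times in Huh7-NC and 1106 times in Huh7-si, with -0.33 (-0.45 to -0.22) as its log2 fold change. NR1H3 (ENSG00000025434, chromosome 11 from 47248300 to 47269032, plus strand) had 859 and 680 reads and -0.29 (-0.44 to -0.14). The receptors of this pair thus stayed level with each other, with a ratio in TPM of 1 in Huh7-NC and 1.01 in Huh7-si. By TPM their log2 fold changes were -0.06 and -0.07, and with TMM scaling -0.56 and -0.51. NR1H3 shares 4.17% of its exon bases with ACP2 on the other strand.

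Of 12 LXR targets, all passed the filter, 1 was called higher and 0 were called lower, where 13.0% and 1.19% of all genes tested were. ABCA1, which exports cholesterol to form high-density lipoprotein, rose from 708 to 1566 reads, with a log2 fold change of 1.19 (1.07 to 1.32). It had 0.97 with TMM scaling and lay 0.52 above the median of genes of like length, and on neither of these scales was it called. ABCG1, the other cholesterol exporter of the list, had 12 and 17.0 reads (0.55, -0.60 to 1.75). Among the lipid synthesis genes, SREBF1 had 3995 and 4436 reads (0.20, 0.14 to 0.26), FASN 20205 and 28001 reads (0.52, 0.49 to 0.55) and SCD 25462 and 19033 reads (-0.37, -0.40 to -0.34). APOE, a lipoprotein component, was at 1868 and 1706 TPM (-0.30). The LXR targets were therefore spread on either side of 0, with a median of 0.17, near the 0.21 of all genes tested. Of the 5 enzymes that make or modify oxysterols, only CYP39A1 passed the filter (166 and 148 reads, -0.12, interval -0.45 to 0.21). CH25H, CYP7B1, CYP46A1 and SULT2B1 had at most 7 reads in a library.

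RXRA and RXRB encode the partner shared by FXR, PXR, CAR and both LXRs. RXRA (ENSG00000186350, chromosome 9 from 134317098 to 134440585, plus strand) drew the most reads of the 10 genes in both libraries, 2959 and 2658, and its log2 fold change was -0.11 (-0.18 to -0.03). RXRB (ENSG00000204231, chromosome 6 from 33193588 to 33200688, minus strand) had 830 and 783 reads, and its log2 fold change was -0.03 (-0.18 to 0.11). By TPM both went the other way, with log2 fold changes of 0.08 for RXRA and 0.49 for RXRB, so that their direction depended on the scale. The 2 genes summed to 46.2 TPM in Huh7-NC and 55.0 TPM in Huh7-si. The 5 receptors that pair with them (NR1H4, NR1H2, NR1H3, NR1I2 and NR1I3) summed to 156 and 138 TPM, which is 3.38 and 2.51 TPM of pairing receptor for each TPM of RXRA and RXRB. RXRB shares 6.22% of its exon bases with SLC39A7 on the other strand (5571 and 5462 reads).

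RXRG, the other retinoid X receptor, had 0 reads in both libraries. Another 10 RXR genes and partners were counted (RXRG and the receptors for fatty acids, retinoic acid, vitamin D and thyroid hormone), and 9 passed the filter. Among them, 0 were called higher and 0 lower, where 13.0% and 1.19% of all genes tested were. PPARG (17.8 and 23.2 TPM), RARA (15.1 and 18.8 TPM) and PPARD (8.06 and 7.91 TPM) had the highest levels, with log2 fold changes of 0.12, 0.07 and -0.17. The intervals of all 3 included 0. The median of the 9 genes was 0.04.

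AHR encodes the receptor for dioxins and other flat aromatic compounds. The gene (ENSG00000106546) lies on chromosome 7 from 16916359 to 17346152 on the plus strand. It rose from 735 reads in Huh7-NC to 1505 reads in Huh7-si, or from 7.55 to 19.1 TPM. Its log2 fold change was 1.08 (0.95 to 1.21, p = 1.8e-66 from the exact binomial test), a 2.12-fold higher level, and the interval reached below a fold of 2. With TMM scaling the log2 fold change was 0.86, with DESeq2's median of ratios 0.88 and by TPM 1.34. AHR is the longest of the 10 genes in the table, at 6243 bases, and long genes were higher in Huh7-si. Among genes of 5697 to 6655 bases the median was 0.43, and AHR lay 0.65 above it, which is under the threshold. Of all genes tested, 86.5% had a lower log2 fold change. In the annotation AHR shares 29.4% of its exon bases with AC019117.2 on the same strand, which had 0 reads in both libraries.

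ARNT, the partner of AHR, lies on chromosome 1 from 150809705 to 150876768 on the minus strand (ENSG00000143437). Its 1060 and 1288 reads gave a log2 fold change of 0.33 (0.21 to 0.45). The median at its length was 0.38, so ARNT lay -0.05 from it. In TPM, the ratio of AHR to ARNT went from 0.588 in Huh7-NC to 1.01 in Huh7-si. The ratio of the LXR pair, by comparison, was 1 and 1.01.

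**Figure D2:**
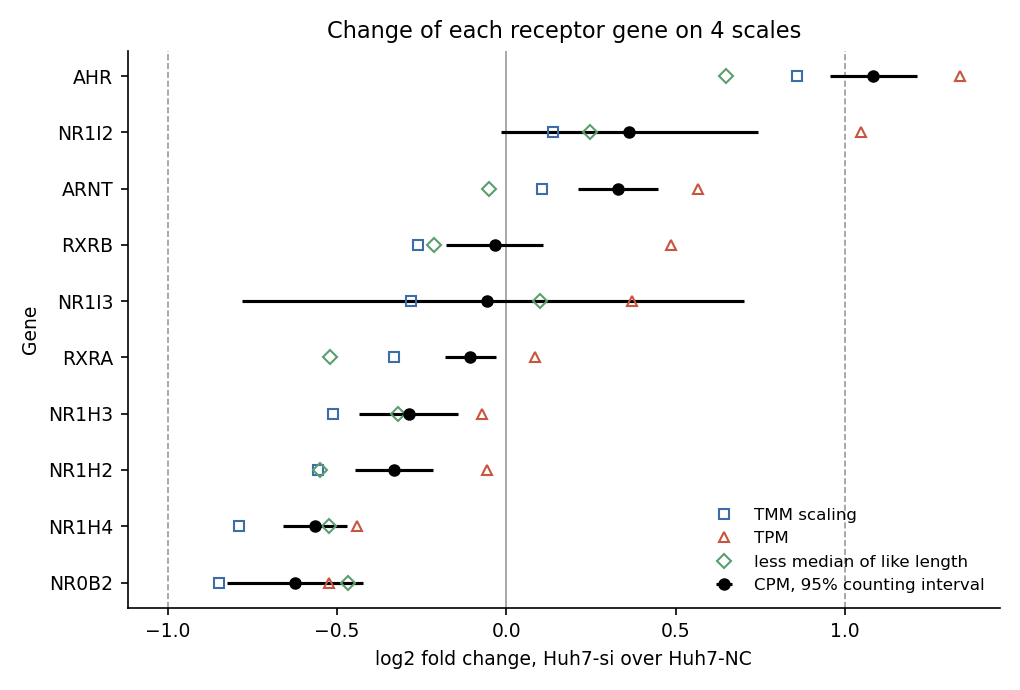
Log2 fold change of each receptor gene, Huh7-si over Huh7-NC, by CPM with its 95% counting interval (black), with TMM scaling (squares), by TPM (triangles) and relative to the median of genes of similar length (diamonds); dashed lines mark a fold of 2. AHR is the only member past a fold of 2 by CPM (1.08), NR1I2 passes it by TPM alone (1.05), and NR1H4, NR0B2, NR1H2 and NR1H3 are below 0 on all 4 scales.

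Of 8 known AHR targets, 7 passed the filter. Of these, 3 were called higher (AHRR, CYP1B1 and UGT1A6) and 1 lower (ALDH3A1), where 13.0% and 1.19% of all genes tested were. AHRR, the repressor that AHR induces against itself, was at 0 reads in the control and 32 after the siRNA, and taking 3 reads as the limit in Huh7-NC its level was at least 11.0-fold higher. With the counting error of both libraries, the lower end of its 95% exact interval was a log2 fold change of 3.08, which is below that bound. The annotation gives AHRR 244 exon bases in common with PDCD6 on the same strand (1378 and 1333 reads). CYP1B1, a cytochrome P450 that oxidizes estrogens and aromatic compounds, rose from 12 to 27 reads (1.22, 0.19 to 2.33). UGT1A6, a glucuronosyltransferase, rose from 53.0 to 109 reads (1.09, 0.60 to 1.59), and it shares 31.8% of its exon bases with UGT1A1, so the division of their reads is uncertain.

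CYP1A1, the most strongly induced of the AHR targets in many cells, drew 1173 control reads and 2237 in Huh7-si, or 26.1 and 59.7 TPM. Its log2 fold change of 0.98 (0.88 to 1.08) lay just under the threshold, and by TPM (1.19) it lay past it. CYP1A2 had no reads in either library. TIPARP, which limits AHR activity, had 390 and 422 reads (0.16, -0.04 to 0.37). NQO1, a quinone reductase that NRF2 also induces, had the highest level of the list and was lower, at 754 and 534 TPM, with a log2 fold change of -0.72 (-0.75 to -0.68) that did not reach a fold of 2. ALDH3A1 fell from 37 to 17 reads (-1.07, -1.99 to -0.21), but by TPM it was higher, at 1.31 and 1.5 TPM. The list was therefore divided, with 5 genes above 0 and 2 below, and its median was 0.98. With TMM scaling, AHRR alone was called higher and ALDH3A1 was still called lower, where 1601 and 406 of all 17955 genes tested were.

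Of 7 partners of AHR and ARNT, 6 passed the filter. Among them, 0 were called higher and 0 lower, where 13.0% and 1.19% of all genes tested were. Among the chaperones that hold AHR in the cytosol, HSP90AB1 had a log2 fold change of -0.42, HSP90AA1 -0.33 and PTGES3 -0.54. Their levels were 997 and 846, 527 and 482, and 444 and 347 TPM. Of this list, HIF1A and EPAS1, which pair with ARNT, were above 0. Their log2 fold changes were 0.44 (76.8 and 120 TPM) and 0.23 (57.3 and 71.7 TPM). With TMM scaling these were 0.21 and 0.00, and these 3 chaperone genes stayed below 0.

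The coactivators and corepressors that receptors of this kind recruit were the group with the longest genes, with a median of 8284 bases. Of 10 genes, 2 were called higher and 0 lower, and 9 had values above 0. Over all genes tested, 13.0% were called higher and 1.19% lower. PPARGC1A, a coactivator of energy metabolism, rose from 46 to 136 reads (1.61, 1.12 to 2.13), and EP300, a histone acetyltransferase, rose from 1437 to 2954 reads (1.09, 0.997 to 1.18). CREBBP, the close relative of EP300, had 1348 and 2428 reads (0.90, 0.80 to 0.995) and the corepressor NCOR1 2440 and 3418 reads (0.54, 0.46 to 0.61). CARM1, a methyltransferase and the member with the highest level (58.3 and 69.3 TPM), had a log2 fold change of -0.10, which was 0.25 by TPM. The median of the list was 0.68, and relative to genes of like length it was 0.14, where PPARGC1A alone was called higher. On that scale 1669 of all 17955 genes tested were called higher.

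**Figure D3:**
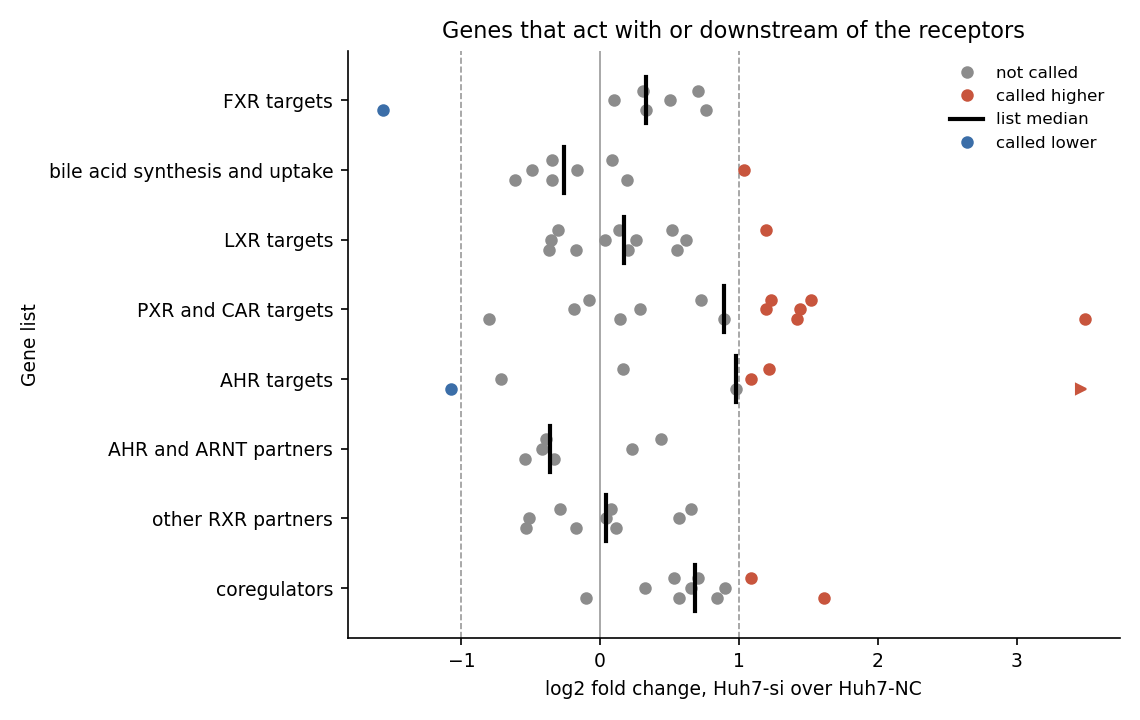
Log2 fold change, Huh7-si over Huh7-NC, of each tested gene in 8 lists of genes that act with or downstream of the receptors; color gives the call, black bars the list medians, dashed lines a fold of 2, and the triangle the bound of AHRR. The PXR and CAR list (median 0.89) and the AHR list (0.98) lie mostly to the right, and SLC51B (-1.56) stands to the left of the other FXR targets.

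Over the 9 lists, 84 genes besides the members were counted and 73 passed the filter. Of these, 13 were called higher and 2 lower, or 17.8% and 2.74%, where 13.0% and 1.19% of all genes tested were called. Their median log2 fold change was 0.23, close to the 0.21 of all genes tested. With TMM scaling 6 of the 73 were called higher and 3 lower, where 1601 and 406 of all 17955 genes tested were. Relative to genes of like length these counts were 7 and 2, where 1669 and 282 of all genes tested were called. Over all genes, calls in the higher direction made up 91.6% of the calls with total reads, 79.8% with TMM scaling and 81.5% with the median of ratios, and TMM scaling moved every log2 fold change by -0.22.

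Gene length moved with the differences in these libraries. Among the genes tested, the median log2 fold change was -0.16 for genes of 959 to 1223 bases and 0.67 for genes of 8484 bases or more. NR0B2 (1165 bases) and NR1H4 (1489 bases) belonged to lengths whose medians were -0.16 and -0.04, and lay -0.47 and -0.52 from them. RXRA, a long gene (5537 bases), lay -0.52 from genes of like length although its own log2 fold change was only -0.11, and NR1H2 (3592 bases) lay -0.55 from them. The median distance of the 10 members from genes of like length was -0.27. The summed fibroblast and endothelial markers were also higher in Huh7-si, as given above. The part of gene length and of these markers in the results for AHR and its targets was not tested.

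**Figure D4:**
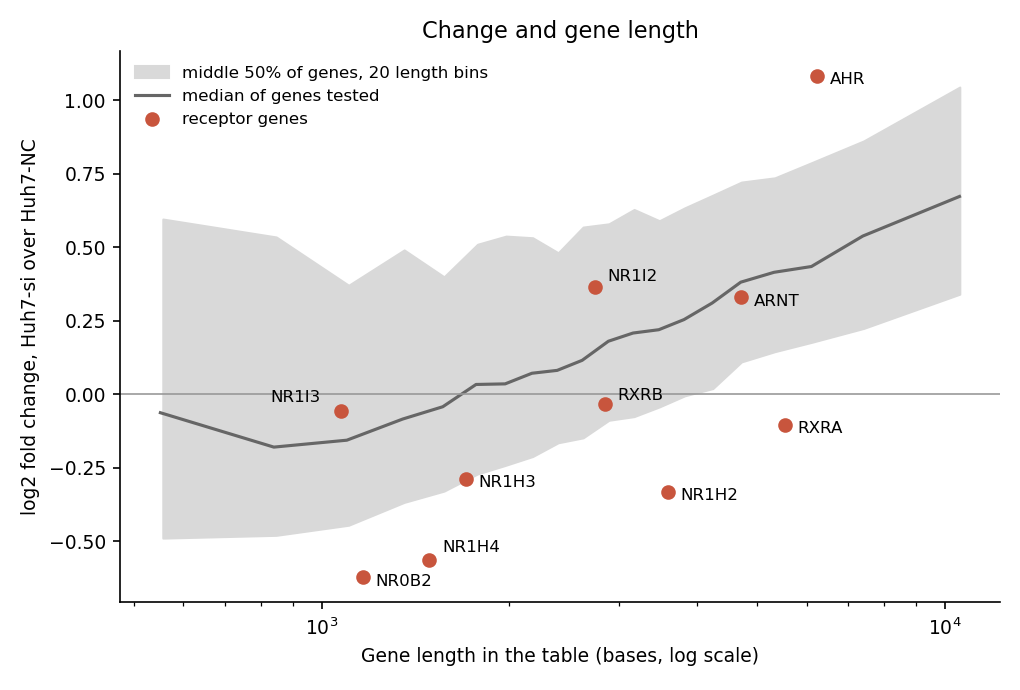
Log2 fold change of the 10 receptor genes (points) against gene length in bases (log axis), with the median (line) and the middle 50% (band) of the genes tested in 20 length bins. AHR (1.08) lies above the band, and NR1H4, NR0B2, NR1H2 and RXRA lie below it.

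The number of reads behind 1 TPM was compared across the genes with at least 1 TPM in both libraries. The median of its log2 ratio, Huh7-si over Huh7-NC, was -0.23 over these 13396 genes. Relative to this median, the log2 ratio lay between -0.32 and 0.35 for the genes from percentile 5 to percentile 95. Of the 10 members, 2 lay outside this range, NR1I2 at -0.50 and RXRB at -0.34, and NR1I3 was at -0.24. The other 7 lay between -0.09 and 0.08, with RXRA at -0.008. The annotation lists 7 transcripts of NR1I2, of 977 to 4417 bases, and 5 of RXRB, of 582 to 2908 bases. Which transcripts changed was not tested, since the table gives values per gene.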

How the data were processed

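RNA-seq data of 1 Huh7-NC and 1 Huh7-si library were analyzed. The authors deposited for each library an estimated count of reads, partly fractional and without scaling, and a TPM value of every gene, with the gene length. The submitters' processing notes name GRCh37, Bowtie2 2.0.6 and TopHat2 2.0.12; the counting tool, annotation and strandedness are not given in the sources used here. The deposited columns of the authors' own fold change and p-value were not used.

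Counts were rounded for tests. Genes with at least 10 reads over both libraries were tested by a two-sided exact binomial test on reads, and called at a fold of at least 2 and p under 0.05. TMM factors, the exact test of edgeR at a set biological coefficient of variation (0.2) and DESeq2 size factors were alternatives, as was the log2 fold change relative to the median of its length bin (20 bins). The test was tried on simulated reads. Named genes were the 10 members and, of each list, every called gene and the 3 with the highest TPM; others named, such as CYP3A4, BAAT and the genes without reads, were chosen after their values were seen, as were the promoters shown. Of the genes this rule names, 1 or more are not reported here, though the counts over lists include them. The members and lists were chosen with earlier results of these data known. Likeness of pattern to other genes was not sought, since 2 libraries give 1 difference.

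Gene positions are from GENCODE release 29 (GRCh38), which holds 94.8% of the gene identifiers, and were matched by identifier, since the table has no coordinates. Python 3.11.15, NumPy 2.4.6, pandas 2.3.3, SciPy 1.17.1, matplotlib 3.10.9, R 4.3.3, edgeR 4.0.16 and DESeq2 1.42.0 were used.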

Additional observations from a re-analysis of the deposited data

How the results depend on the processing

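With 1 library per condition, no replicate could be left out, and counting error is the only error known. No paired analysis was possible because each condition has 1 library. The call of AHR depended on the processing: 1 member was called higher, and 0 were after TMM or median-of-ratios scaling or against genes of like length, where its log2 fold change was 0.86, 0.88 and 0.65. No member was called lower, and 1 was at a fold of 1.5. The median of the members was -0.08, and it was -0.31 with TMM scaling, -0.29 with the median of ratios, -0.27 relative to genes of like length and, with its sign turned, 0.23 by TPM. Of the other listed genes 13 were called higher, against 6 with TMM, 6 with the median of ratios, 7 with a pseudocount of 1 CPM, 7 relative to genes of like length and 21 at a fold of 1.5; 2 were called lower, against 1 with the pseudocount, 1 with edgeR's exact test and 5 at a fold of 1.5. Single members changed sign by TPM (NR1I3 0.37, RXRA 0.0838, RXRB 0.49) and relative to genes of like length (NR1I3 0.10, ARNT -0.0515). The cause of these moves was not tested. BRF2 stayed called lower where tested, with log2 fold changes from -1.99 to -1.59. Over all genes, 2337 were called higher and 214 lower, against 1601 and 406 with TMM, 1652 and 376 with the median of ratios, 911 and 43 with the pseudocount, 1435 and 107 with 10 reads in each library and 4229 and 700 at a fold of 1.5. NR1I2 and NR1I3 had the fewest reads of the members, and by CPM the intervals of their log2 fold changes included 0. By TPM, the Poisson intervals of NR1I2 did not overlap (1.75 to 2.57 in Huh7-NC and 3.68 to 5.21 in Huh7-si).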
